A study of Mus musculus with 8 samples.

Results

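The complement and coagulation genes described here are 49 genes of the mouse blood-borne defence and clotting cascades, chosen as a fixed list of gene symbols. All 49 were found once in the gene list of 32285 genes. Their nuclear RNA was counted as unique molecular identifiers (UMIs, 1 per captured RNA molecule) in single nuclei of 8 frozen livers of male DIAMOND mice, a cross of 129A1/SvIm and C57BL/6J in which fatty liver disease and liver cancer arise on a Western diet. The groups are named RD (reversed diet) and WD (Western diet). The 3 livers called RD no tumour came from mice fed Western diet (high fat, with fructose and glucose in the water) for 36 weeks and then returned to chow, with no detectable hepatocellular carcinoma. The 2 livers called RD tumour had the same diets and carried hepatocellular carcinoma. The 3 livers called WD tumour were from mice kept on Western diet for 48 weeks, and carried hepatocellular carcinoma. All 8 mice had therefore eaten Western diet, and no liver was from a mouse that never received it. The labels do not say whether the sampled piece held tumour, and they assign each library to a separate mouse.

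Complement is a cascade of plasma proteins that tags and lyses targets. Antibody-bound C1q (classical pathway), mannose-binding lectins (lectin pathway) or spontaneous C3 turnover (alternative pathway) all lead to cleavage of C3, after which C5 to C9 form a pore in the membrane. Coagulation is a parallel protease cascade that ends in thrombin cutting fibrinogen to fibrin, held back by antithrombin, protein C, protein S and the tissue factor pathway inhibitor, and undone by plasmin. Liver is the chief source of most of these plasma proteins, while its sinusoidal endothelial cells, stellate cells and resident macrophages (Kupffer cells) make some of them.

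Counts were summed by mouse over every barcode with at least 300 detected genes, and by cell class, where nuclei were assigned to a class from marker genes that include none of the 49. Levels are UMI counts scaled to the total of the sum (CPM). UMIs are counted at the 3′ end of transcripts, so a level is compared between mice or classes for the same gene and not between genes. Total UMIs ran from 17948627 to 34363108 per mouse. The hepatocyte gate took 190 to 5935 nuclei per mouse, the macrophage gate 75 to 562, the endothelial gate 18 to 905 and the stellate/fibroblast gate 2 to 664. A sum needed at least 20 nuclei, so that endothelial, stellate/fibroblast and T/NK sums come from 7 mice, cholangiocyte sums from 5 mice and B sums from 3. Between 18.1% and 95.6% of nuclei per mouse passed no gate. Any pair of libraries shared at most 65 cell barcodes, and at most 0.676% of those of the smaller library.

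A pair of libraries stood apart. RD tumour 1 held 20000 barcodes, 19121 of them in no gate, with 190 hepatocyte, 594 neutrophil, 75 macrophage, 18 endothelial and 2 stellate/fibroblast nuclei and none in the T/NK or cholangiocyte gate. RD no tumour 1 passed only 572 nuclei through the hepatocyte gate, with medians of 2062 UMIs and 3.47% mitochondrial UMIs per nucleus. A widened hepatocyte gate, described below, took 4453 nuclei of that mouse, with medians of 3471 UMIs and 0.743%. The whole-library level of Saa1, an acute-phase protein gene, was 10965 CPM in RD no tumour 1, against 74.8 to 964 CPM in the other 7 mice. Mitochondrial UMIs also differed: the median share per nucleus was 7.91% in WD tumour 1 and 7.51% in WD tumour 3, and 1.30% to 3.28% elsewhere. Some results that rest on these libraries are also given without the library in question, and others only with it.

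The genes whose sequences are shown are those the results turn on: the fibrinogen genes, which were highest in the hepatocyte gate; a pair of C1q genes, highest in the macrophage gate; and C6, C7 and C9, which encode parts of the lytic pore, lie on chromosome 15 and were highest in 3 different gates. The fibrinogen genes lie within 42.1 kb (chr3:83007724-83049863, GRCm38), the C1q genes within 18.7 kb (chr4:136880129-136898803) and C6 and C7 within 337 kb (chr15:4727175-5063740). RefSeq (GRCm38.p6) gave the upstream sequence for 39 of the 49 genes. Each line holds up to 250 bases before the RefSeq start, on the gene's strand, without bases inside the GENCODE gene. Capitals mark letters of 3 motifs searched on both strands: GTTAAT (a half-site of HNF1, a hepatocyte factor), TTNNGNAA (a C/EBP-type site) and GAGGAA (a PU.1-type site, PU.1 being a myeloid factor); overlapping matches run together.
Fga (chr3:83025903-83026075, + strand): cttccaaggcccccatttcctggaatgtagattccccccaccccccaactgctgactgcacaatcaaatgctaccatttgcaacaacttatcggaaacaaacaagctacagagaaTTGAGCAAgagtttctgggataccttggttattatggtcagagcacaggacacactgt
Fgb (chr3:83049864-83050113, - strand): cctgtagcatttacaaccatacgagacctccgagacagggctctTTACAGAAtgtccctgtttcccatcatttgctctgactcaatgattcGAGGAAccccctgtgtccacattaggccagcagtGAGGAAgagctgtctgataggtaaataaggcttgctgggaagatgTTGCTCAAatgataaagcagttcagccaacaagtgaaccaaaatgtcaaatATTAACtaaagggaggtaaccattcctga
Fgg (chr3:83007474-83007723, + strand): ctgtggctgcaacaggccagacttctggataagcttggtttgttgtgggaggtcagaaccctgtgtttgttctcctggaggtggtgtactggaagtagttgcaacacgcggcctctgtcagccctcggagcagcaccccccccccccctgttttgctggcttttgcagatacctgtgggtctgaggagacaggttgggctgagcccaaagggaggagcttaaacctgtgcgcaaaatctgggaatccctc
C1qb (chr4:136886201-136886450, - strand): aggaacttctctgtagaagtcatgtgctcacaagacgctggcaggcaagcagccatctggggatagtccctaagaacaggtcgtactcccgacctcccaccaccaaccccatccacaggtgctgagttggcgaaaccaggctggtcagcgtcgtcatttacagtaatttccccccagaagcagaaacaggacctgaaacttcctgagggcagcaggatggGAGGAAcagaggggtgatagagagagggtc
C1qc (chr4:136893066-136893164, - strand): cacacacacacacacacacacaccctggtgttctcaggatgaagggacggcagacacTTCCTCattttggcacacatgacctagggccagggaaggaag
C6 (chr15:4726960-4727174, + strand): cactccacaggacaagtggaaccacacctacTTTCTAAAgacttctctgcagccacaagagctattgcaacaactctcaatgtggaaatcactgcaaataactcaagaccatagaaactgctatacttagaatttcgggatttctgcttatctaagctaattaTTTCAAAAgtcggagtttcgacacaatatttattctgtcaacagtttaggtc
C7 (chr15:5063774-5064023, - strand): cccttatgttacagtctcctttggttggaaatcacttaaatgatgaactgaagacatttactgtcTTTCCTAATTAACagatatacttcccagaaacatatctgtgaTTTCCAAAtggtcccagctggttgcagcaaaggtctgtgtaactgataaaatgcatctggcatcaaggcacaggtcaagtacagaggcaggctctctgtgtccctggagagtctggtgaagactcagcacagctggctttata
C9 (chr15:6445096-6445326, + strand): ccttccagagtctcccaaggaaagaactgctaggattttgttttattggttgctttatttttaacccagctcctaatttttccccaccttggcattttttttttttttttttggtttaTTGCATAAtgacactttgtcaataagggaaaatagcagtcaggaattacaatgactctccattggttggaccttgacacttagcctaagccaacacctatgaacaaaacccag

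A match describes letters only. GTTAAT was found in 8 of the 24 genes with a sequence that were highest in hepatocytes, in 2 of the 15 others, and in 6.43% of all 32851 listed promoters of the same length. TTNNGNAA was in 12 of 24 and 5 of 15, against 36.8% of all promoters. GAGGAA was in 2 of 24 and 3 of 15, against 23.3% of all. These counts are over the full 250 bases. Of the printed stretches, that of Fgb held 1 GTTAAT, 2 C/EBP-type and 2 GAGGAA matches, that of Fga 1 C/EBP-type match and that of Fgg none. Those of C1qb and C1qc each held 1 GAGGAA match. That of C6 held 2 C/EBP-type matches, that of C7 1 GTTAAT and 2 C/EBP-type matches and that of C9 1 C/EBP-type match.

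Which class holds the RNA of each factor was asked first. By mean level over mice, 31 of the 49 genes were highest in hepatocyte-gated nuclei, 7 in macrophages (C1qa, C1qb, C1qc, Cfp, C6, C3ar1 and C5ar1), 6 in endothelial nuclei (F8, Tfpi, Cd55, Cd59a, Pros1 and Cfd), 3 in stellate/fibroblast nuclei (C7, Masp1 and C2), 2 in T/NK nuclei (Mbl2 and C8g) and none in cholangiocytes. By median over mice, another ranked class exceeded hepatocytes for C1ra, C4b, Mbl1, C3, Cfb, C8b, Cfi, Serping1, Kng1, F2 and Serpinc1. For the rest of the 31, hepatocytes stayed highest. The median of C3 was 1826 CPM in hepatocytes and 2336 CPM in T/NK nuclei, where RD tumour 1 has no sum. Both rankings leave out the B and neutrophil gates, each with sums from 3 mice only. In those mice C5ar1 was higher in neutrophils, and C8b in B nuclei, than in each of the 6 ranked classes that had a sum. C3 was at 5632, 2353 and 3159 CPM in the neutrophils of RD no tumour 1, RD tumour 1 and RD tumour 2, and at 10716, 3142 and 2252 CPM in their hepatocyte-gated nuclei. Each class was tested against the hepatocyte gate by edgeR's quasi-likelihood test with the mouse as a block and Benjamini-Hochberg adjustment over 11893 genes, and 48 of the 49 genes passed the filter on low counts. In macrophages 8 genes were higher and 39 lower, where 26.0% of all genes were called higher and 33.3% lower. In endothelial nuclei 5 were higher and 35 lower (background 24.3% and 30.6%). In stellate/fibroblast nuclei 4 were higher and 35 lower (23.1% and 30.5%). No gene of the list was called higher in cholangiocytes or in T/NK nuclei, where 35 and 36 were lower, with 20.8% and 28.9% of all genes called lower and 11.1% and 13.6% called higher.

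**Figure D1:**
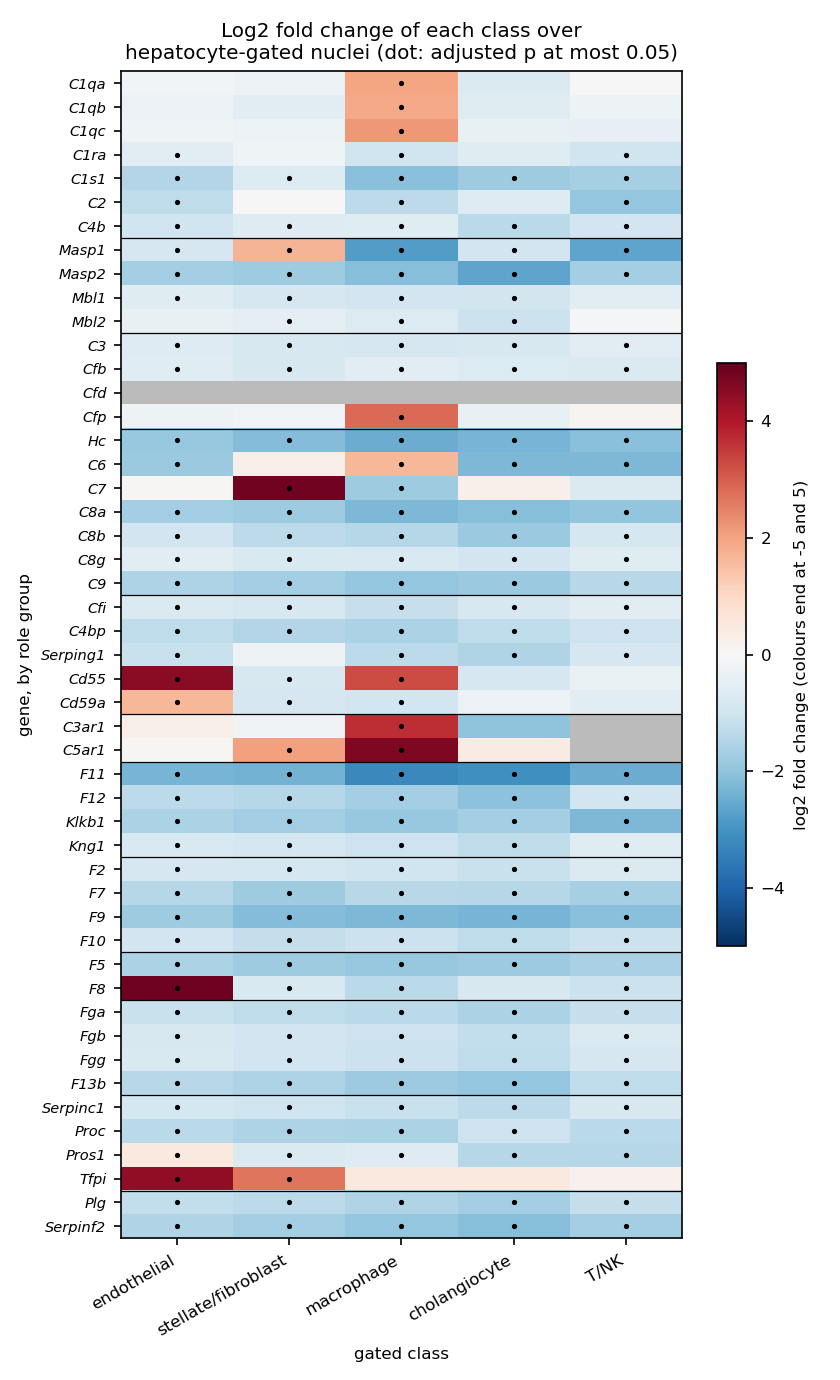
Log2 fold change of each of the 49 genes (rows, grouped by role, lines between groups) in 5 gated classes against hepatocyte-gated nuclei (columns); dots mark an adjusted p of at most 0.05 in edgeR, and grey cells were not fitted or held 0 UMIs. Most rows are blue in every class, and the dotted red cells are F8, Cd55, Tfpi, Cd59a and Pros1 in endothelial nuclei, C7, Masp1, Tfpi and C5ar1 in stellate/fibroblast nuclei and 8 genes in macrophages.

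RNA of hepatocyte genes was present in every gate. The 10 hepatocyte genes kept out of the gate as a reference (among them Apoa2, Fabp1 and Otc) had a median log2 fold change of -1.17 in endothelial nuclei, -1.35 in stellate/fibroblast nuclei and -1.49 in macrophages, and none was called higher in any class. The 31 genes highest in hepatocytes had medians of -1.23, -1.29 and -1.42 in the same classes. In macrophages the single genes ranged from -3.22 to -0.55, and the reference genes from -3.03 to -0.61. Doublets between the non-hepatocyte classes were limited by a purity rule on markers and by no caller. That rule leaves hepatocyte markers out, so in those gates it did not limit doublets with hepatocytes.

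The 31 genes highest in hepatocytes were picked from the same sums as the tests against that gate, so that their calls of lower in other classes are a description. Only C1ra and Serping1, both in stellate/fibroblast nuclei, were not called lower in endothelial, stellate/fibroblast and macrophage nuclei alike. The 31 genes comprised C1ra, C1s1 and C4b of the classical pathway; Masp2 and Mbl1 of the lectin pathway; C3 and Cfb; the pore genes Hc (which encodes C5), C8a, C8b and C9; the regulators Cfi, C4bp and Serping1 (C1 inhibitor); the contact factors F11, F12, Klkb1 (prekallikrein) and Kng1 (kininogen); F2 (prothrombin), F7, F9, F10 and F5; Fga, Fgb, Fgg and F13b; the anticoagulants Serpinc1 (antithrombin) and Proc (protein C); and the fibrinolysis genes Plg (plasminogen) and Serpinf2 (antiplasmin).

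F11, the zymogen of a clotting protease of the intrinsic pathway, was the gene with the lowest log2 fold change in macrophages. Its level was 89.1 ± 54.4 CPM (SD, n = 8) in the hepatocyte gate and 3.38 to 21.4 CPM in macrophages, a log2 fold change of -3.22 (SE 0.26, adjusted p = 4.95e-15 in edgeR). Hc stood at 564 ± 210 CPM in hepatocytes and 134 ± 54.6 CPM in macrophages, a log2 fold change of -2.46 (SE 0.18). Fgb, by contrast, was 5155 ± 6906 CPM in hepatocytes and 2556 ± 2069 CPM in macrophages, a log2 fold change of -1.05 (SE 0.18). The mannose-binding lectin gene Mbl2 and the C8 gamma chain gene C8g had their highest means in T/NK nuclei, for which RD tumour 1 has no value. In the test, Mbl2 did not differ from hepatocytes (log2 fold change -0.07, adjusted p = 0.834 in edgeR) and C8g was lower (-0.59, SE 0.20, adjusted p = 0.0159).

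Levels are given here for 7 abundant hepatocyte genes from different role groups. C3, the hub of the cascade, was at 3017 ± 3258 CPM in hepatocytes, 1780 ± 776 CPM in endothelial nuclei, 1562 ± 730 CPM in stellate/fibroblast nuclei and 1717 ± 777 CPM in macrophages. C4b, which joins the C3 convertase, was at 599 ± 354 CPM in hepatocytes and 481 ± 201 CPM in macrophages, and C4bp, which dissolves that convertase, at 546 ± 460 and 211 ± 131 CPM. Kng1 was at 1973 ± 1933 CPM in hepatocytes and 1058 ± 510 CPM in macrophages. F2 was at 583 ± 297 and 355 ± 86.7 CPM, Serpinc1 at 717 ± 324 and 412 ± 109 CPM, and Plg at 900 ± 451 and 391 ± 117 CPM. All 7 were called lower in macrophages, with log2 fold changes from -0.59 (C4b) to -1.59 (C4bp).

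Among the ranked classes, the 3 chains of C1q, the recognition molecule of the classical pathway, were highest in macrophages. In the neutrophil gate, with sums from 3 mice, C1qa, C1qb and C1qc had means of 471, 688 and 347 CPM. Macrophages of those mice had means of 488, 632 and 433 CPM. C1qa in macrophages was 284, 447 and 291 CPM in the RD no tumour mice, 808 and 371 CPM in the RD tumour mice, and 364, 300 and 389 CPM in the WD tumour mice. In hepatocyte-gated nuclei it was 111, 39.95, 23.4, 563, 88.2, 42.6, 317 and 32.8 CPM in the same order. Macrophages were higher in 7 of 8 mice, the exception being WD tumour 2, and the hepatocyte-gated value of RD tumour 1 was above that of every macrophage sum but its own. The log2 fold change was 1.98 for C1qa (SE 0.27, adjusted p = 2.1e-08 in edgeR), 1.91 for C1qb (SE 0.24) and 2.16 for C1qc (SE 0.27).

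Properdin (Cfp), which stabilises the alternative-pathway C3 convertase, was at 181 to 304 CPM in macrophages and at 9.14 to 85.5 CPM in the hepatocyte gate, with no overlap over 8 mice. Its log2 fold change was 2.83 (SE 0.22, adjusted p = 1.37e-15 in edgeR). Factor D (Cfd), the protease of that pathway, gave 1 to 29 UMIs per whole library and fell under the filter of the class fits, so that its highest mean, in endothelial nuclei, rests on 7 UMIs.

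C6, the second component of the lytic pore after C5, was also highest in macrophages. Its macrophage level was 627, 1174 and 1028 CPM in RD no tumour mice, 38.5 and 783 CPM in RD tumour mice, and 612, 421 and 432 CPM in WD tumour mice. RD tumour 1 was the only mouse in which hepatocyte-gated nuclei (71.3 CPM) exceeded macrophages. The macrophage sum of that mouse came from 75 nuclei. Over all mice the log2 fold change was 1.65 (SE 0.24, adjusted p = 6.08e-08 in edgeR). In macrophage-gated nuclei with a UMI of Clec4f, Timd4 or Marco, genes of Kupffer cells, C6 reached 617 to 1264 CPM, and in the other macrophage-gated nuclei it was 15.8 to 409 CPM. C6 was also present at 250 ± 83.2 CPM (SD, n = 7) in stellate/fibroblast nuclei and 172 ± 95.1 CPM (n = 8) in hepatocytes, which did not differ in the test (log2 fold change 0.30, adjusted p = 0.31 in edgeR).

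C7, the next component of the pore, was a stellate/fibroblast RNA. Its level there was 472, 55.4 and 96.7 CPM in RD no tumour mice, 87.5 CPM in RD tumour 2, and 174, 367 and 131 CPM in WD tumour mice. In hepatocyte-gated nuclei it was 1.56 to 10.7 CPM, so the gates did not overlap. The log2 fold change was 4.81 (SE 0.30, adjusted p = 1.63e-18 in edgeR). C9, the last component of the pore, was at 203 ± 113 CPM in hepatocytes and 78.3 ± 19.5 CPM in stellate/fibroblast nuclei. The genes of C6, C7 and C9 were thus highest in macrophages, stellate/fibroblast nuclei and hepatocytes, in that order.

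Masp1, a protease of the lectin pathway, was at 376 to 676 CPM in stellate/fibroblast nuclei and 93.5 to 221 CPM in hepatocytes (log2 fold change 1.68, SE 0.17, adjusted p = 9.27e-12 in edgeR). Its partner Masp2 was at 198 ± 72.3 CPM in hepatocytes and lower in all 5 other classes. C2 had its highest mean in stellate/fibroblast nuclei (58.8 ± 12.3 CPM) but was at 49.3 ± 14.8 CPM in hepatocytes, and the test found no difference (log2 fold change -0.04, adjusted p = 0.895 in edgeR).

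**Figure D2:**
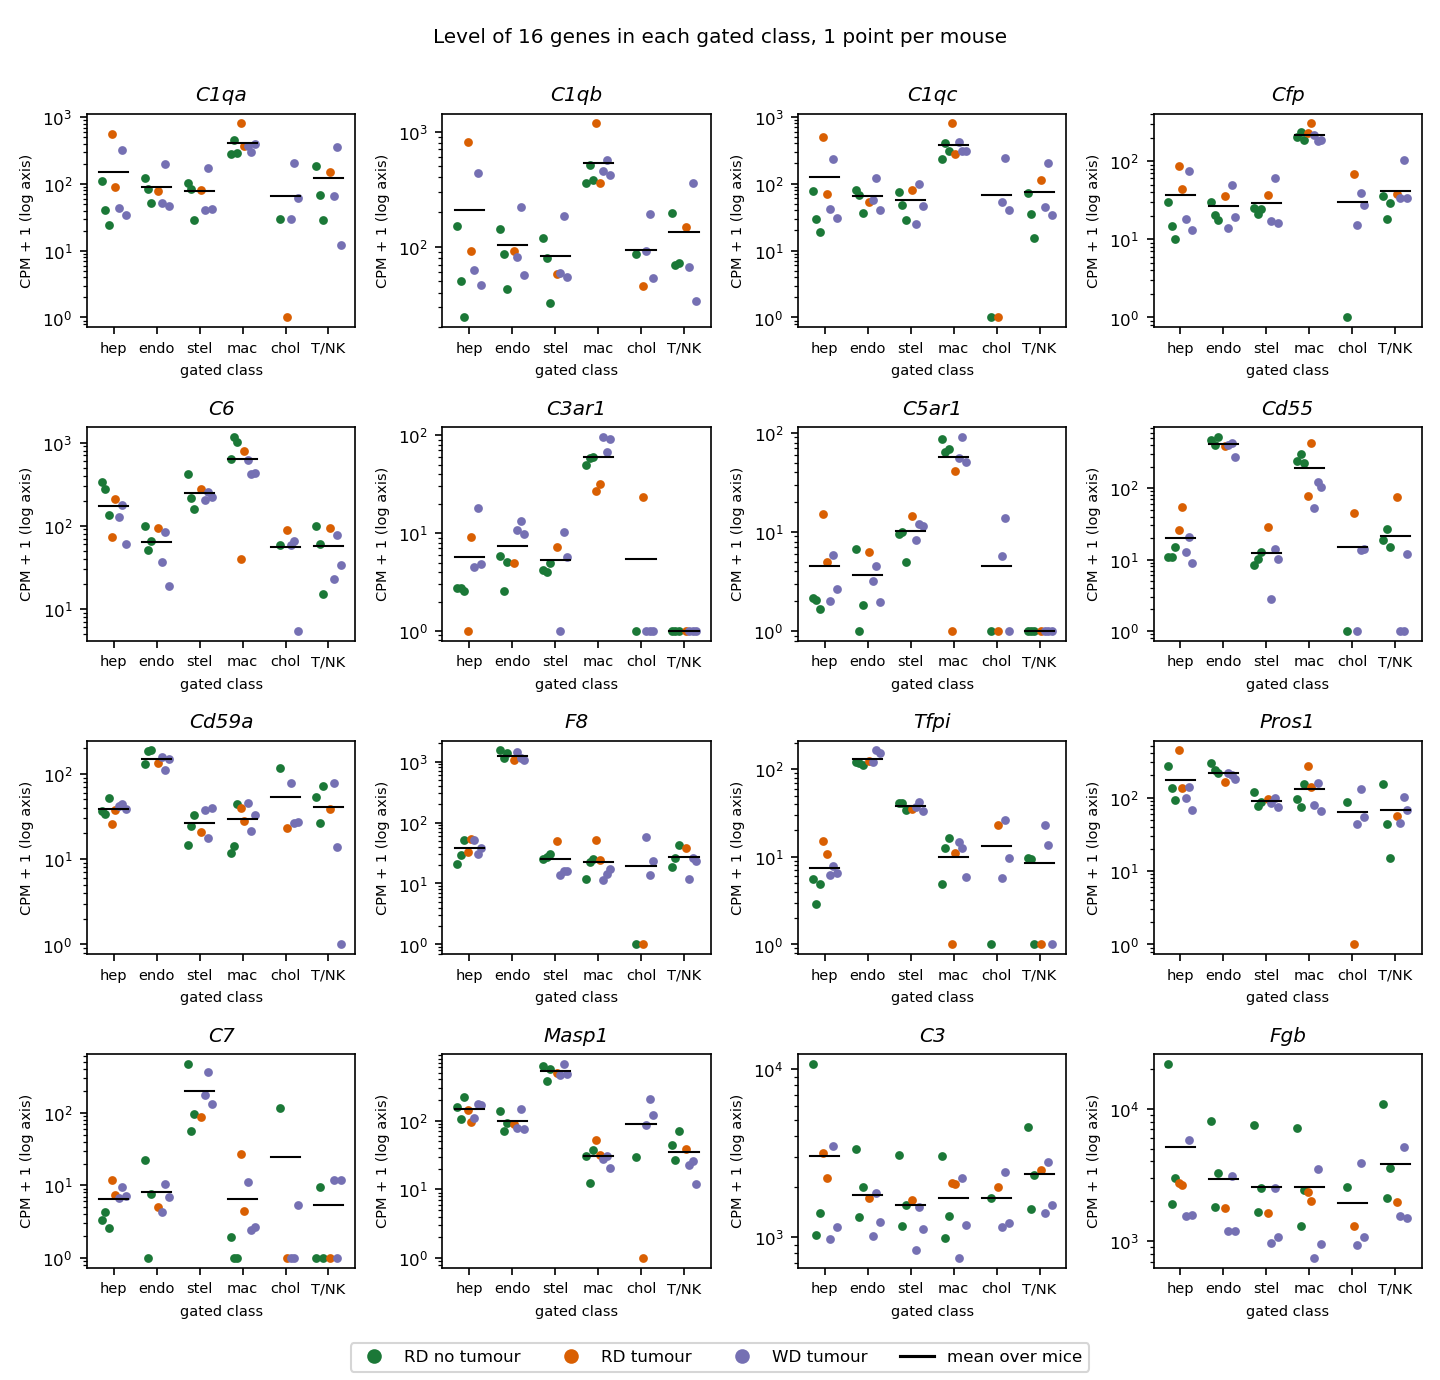
CPM + 1 on a log axis of 16 genes in 6 gated classes (hep, hepatocyte; endo, endothelial; stel, stellate/fibroblast; mac, macrophage; chol, cholangiocyte), 1 point per mouse coloured by group, with lines at the mean over mice. The macrophage points of Cfp lie above all hepatocyte points, as do the endothelial points of F8 and the stellate/fibroblast points of C7, while the points of C3 and Fgb overlap between all classes.

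F8, the cofactor missing in haemophilia A (chrX:75172715-75382615), was an endothelial RNA. Its endothelial level was 1526, 1143 and 1396 CPM in RD no tumour mice, 1038 CPM in RD tumour 2, and 1425, 1150 and 1060 CPM in WD tumour mice. Hepatocyte-gated nuclei held 19.5 to 52.2 CPM. The gates were far apart in every mouse, with a log2 fold change of 4.86 (SE 0.21, adjusted p = 5.16e-24 in edgeR). F5, the homologous cofactor, was at 333 ± 54.8 CPM in hepatocytes and 139 ± 31.4 CPM in endothelial nuclei.

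Tfpi, the inhibitor of the tissue factor complex, was at 112 to 164 CPM in endothelial nuclei, 32.5 to 40.8 CPM in stellate/fibroblast nuclei and 1.88 to 14.3 CPM in hepatocytes. These 3 ranges did not overlap. Log2 fold changes over hepatocytes were 4.43 (SE 0.22) and 2.69 (SE 0.23), with adjusted p = 2.36e-22 and 5.3e-14 in edgeR. Pros1 (protein S), cofactor of protein C, was at 160 to 290 CPM in endothelial nuclei and 67.0 to 438 CPM in hepatocytes. That overlap went with a log2 fold change of 0.48 (SE 0.20, adjusted p = 0.0357 in edgeR), a call lost without RD no tumour 2 (0.44), RD no tumour 3 (0.46), WD tumour 1 (0.38) or WD tumour 3 (0.40).

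The membrane regulators protect host cells from complement. Cd55, which speeds the decay of C3 convertases, was at 272 to 521 CPM in endothelial nuclei, 51.0 to 426 CPM in macrophages and 7.81 to 54.1 CPM in hepatocytes. Its log2 fold change over hepatocytes was 4.53 (SE 0.26) in endothelial nuclei and 3.25 (SE 0.25) in macrophages (adjusted p = 6.37e-20 and 1.78e-15 in edgeR). The B gate, with 3 mice and no test, held 401, 460 and 514 CPM. Cd59a, which blocks assembly of the pore, was at 108 to 186 CPM in endothelial nuclei and 24.9 to 50.2 CPM in hepatocytes (log2 fold change 1.68, SE 0.19).

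Among the ranked classes, the receptors of the complement fragments C3a and C5a were highest in macrophages. C3ar1 was at 25.6 to 95.2 CPM in macrophages and 0 to 17.1 CPM in hepatocytes (log2 fold change 3.69, SE 0.31, adjusted p = 1.51e-13 in edgeR). C5ar1 was at 40.5 to 90.4 CPM in the macrophages of 7 mice and at 0 in RD tumour 1, and its log2 fold change was 4.69 (SE 0.33, adjusted p = 1.22e-15). In the neutrophil gate, measurable in 3 mice, C5ar1 was at 113 CPM in RD no tumour 1, 23.7 CPM in RD tumour 1 and 123 CPM in RD tumour 2. Each of these C5ar1 levels was above the macrophage level of the same mouse. Its stellate/fibroblast level of 9.12 ± 3.06 CPM (SD, n = 7) was called higher than in hepatocytes, a call lost under a stricter gate (log2 fold change 0.31).

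Other genes of the pathways were spread over the same classes. Of 44 listed, 31 could be tested against the hepatocyte gate. In stellate/fibroblast nuclei 9 were higher and 16 lower (23.1% and 30.5% of all genes), in endothelial nuclei 5 and 17 (24.3% and 30.6%) and in macrophages 9 and 18 (26.0% and 33.3%). Stellate/fibroblast nuclei held the lectins Colec10 (631 ± 146 CPM) and Colec11 (362 ± 73.0 CPM) and Adamts13, the protease that trims von Willebrand factor (227 ± 52.9 CPM; SD, n = 7 each). In hepatocytes these were at 6.41 ± 5.43, 17.8 ± 8.57 and 2.18 ± 2.06 CPM. Vwf itself was at 130 ± 73.7 CPM in endothelial nuclei, with a log2 fold change of 4.17 (SE 0.21). Macrophages held Vsig4, a receptor for C3b (581 ± 288 CPM), and F13a1, the catalytic chain of factor XIII (113 ± 165 CPM), while F13b, its carrier chain, was a hepatocyte RNA. F3 (tissue factor) was called higher in cholangiocytes, at 44.8 ± 23.9 CPM (SD, n = 5, 29 UMIs in all), against 3.63 ± 0.56 CPM in hepatocytes.

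The order of classes depended in part on the hepatocyte gate. Where all ungated nuclei low in other markers were added to it, an alternative chosen after seeing the data, 18 rather than 31 genes were highest in hepatocytes. Of the 13 that changed, 10 moved to T/NK nuclei (among them C3, Fgb, Fgg, F2 and Kng1), C1ra and Serping1 to stellate/fibroblast nuclei, and C4b to macrophages. Against that widened gate C3 was called higher in endothelial and T/NK nuclei, Mbl2 in T/NK nuclei, C1ra in stellate/fibroblast nuclei and Tfpi in macrophages. The 18 genes highest outside hepatocytes kept their class under the widened gate, and also without RD tumour 1. Under a stricter gate, with 4 classes to compare, 15 of the 18 kept it, and Mbl2, C8g and Cfd were then highest in hepatocytes. The ranking was not repeated without RD no tumour 1. In the tests without that mouse, 29 genes were called lower in endothelial nuclei, 30 in stellate/fibroblast nuclei and 35 in macrophages. With it these counts were 35, 35 and 39. Lower calls in cholangiocytes were 31 without it and 35 with it, and in T/NK nuclei 27 and 36. The genes called higher stayed the same.

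The groups were then compared, to ask whether tumour after diet reversal or continued Western diet went with different levels. WD tumour and RD no tumour mice differ in both diet and tumour, which cannot be told apart in that contrast. In whole libraries no gene of the list and no gene of 19087 tested passed an adjusted p of 0.05 in edgeR in any of the 3 contrasts (0% called). At an unadjusted p under 0.05, 5 of the 49 stood out in RD tumour against RD no tumour (F11, F7, F13b, C1qc and C1qa; 6.70% of all genes), 0 in WD tumour against RD no tumour (2.75%) and 3 in WD tumour against RD tumour (C1s1, F11 and F7; 7.56%). DESeq2 called none of the 49, and 67, 36 and 109 of the 19087 genes, in these contrasts. The median log2 fold change of the 49 was -0.65, -0.22 and 0.30 in the 3 contrasts, beside 0.00, -0.01 and -0.01 over all genes. Without RD tumour 1 the medians were -0.38, -0.22 and 0.13, and without RD no tumour 1 they were -0.47, -0.14 and 0.29. The contrasts share mice. In whole livers, fewer cells of a type and less RNA per cell cannot be told apart.

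**Figure D3:**
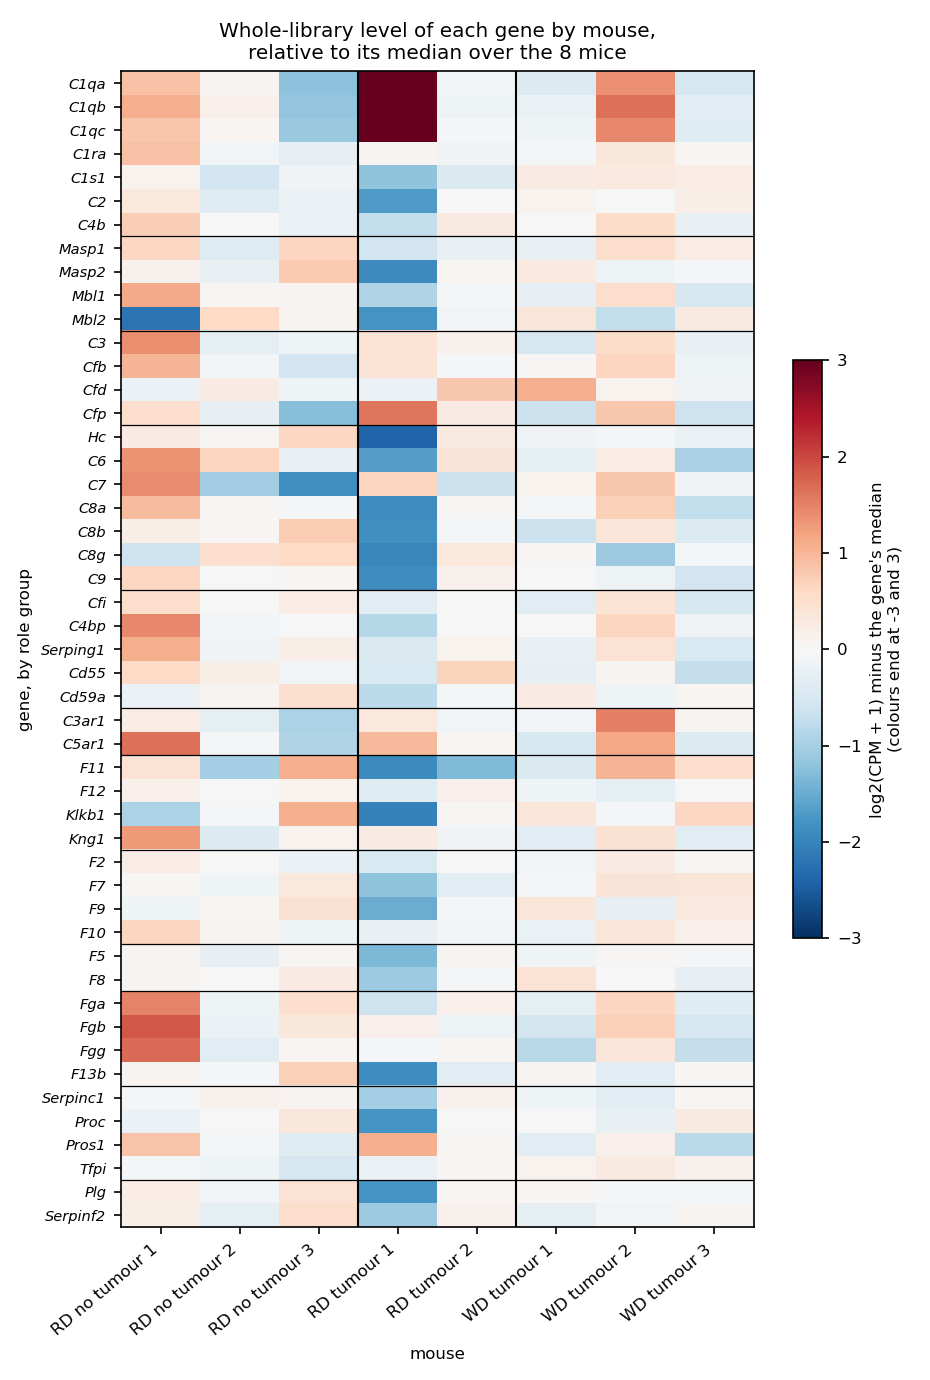
Whole-library log2(CPM + 1) of each gene (rows, by role) in each mouse (columns, by group), minus the gene's median over the 8 mice. RD tumour 1 is blue in most rows and dark red in the 3 C1q rows, and RD no tumour 1 is red in the rows of Fga, Fgb and Fgg.

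F11 was the gene of the list with the lowest p in RD tumour against RD no tumour. Its whole-library level was 95.7, 34.5 and 151 CPM in RD no tumour mice, 18.2 and 27.7 CPM in RD tumour mice, and 52.3, 144 and 101 CPM in WD tumour mice. Both RD tumour mice were below the other 6. The log2 fold change was -2.12 (SE 0.68, adjusted p = 0.612 in edgeR) against RD no tumour and -1.90 without RD tumour 1. WD tumour against RD tumour gave 2.13 (SE 0.68, adjusted p = 0.59). In hepatocyte-gated nuclei F11 was at 35.6 and 30.1 CPM in RD tumour mice and 40.7 to 164 CPM in the other 6, with the same order of groups (log2 fold change -2.17 against RD no tumour, SE 0.69, adjusted p = 0.63).

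F7, which starts the extrinsic pathway with tissue factor, was at 50.7, 44.7 and 61.3 CPM in RD no tumour mice, 21.0 and 38.8 CPM in RD tumour mice, and 48.0, 65.3 and 63.8 CPM in WD tumour mice. F13b was at 105, 97.1 and 164 CPM, 26.5 and 79.2 CPM, and 106, 79.3 and 102 CPM in the same groups. For both genes the RD tumour mice lay below the other 6, and the values of RD tumour 2 were close to those above it. Log2 fold changes against RD no tumour were -0.89 (SE 0.32) for F7 and -1.32 (SE 0.49) for F13b, each with an adjusted p of 0.612 in edgeR. Without RD tumour 1 they were -0.56 and -0.77.

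C1q in whole libraries followed RD tumour 1. C1qa was at 132, 75.8 and 29.8 CPM in RD no tumour mice, 754 and 67.7 CPM in RD tumour mice, and 54.0, 187 and 49.7 CPM in WD tumour mice. The log2 fold change of C1qc in RD tumour against RD no tumour was 2.35 (SE 0.97, adjusted p = 0.612 in edgeR), and -0.28 without RD tumour 1. That library also held C1qa at 563 CPM in the hepatocyte gate and 1099 CPM in the neutrophil gate, beside 808 CPM in macrophages. C1s1, a protease of the C1 complex, was at 284, 292 and 278 CPM in WD tumour mice, 103 and 177 CPM in RD tumour mice and 255, 159 and 222 CPM in RD no tumour mice. Its WD tumour values lay above the other 5 (log2 fold change 1.06 over RD tumour, SE 0.32, adjusted p = 0.59 in edgeR).

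In WD tumour against RD no tumour the 4 genes of the list with the lowest p in whole libraries were C3ar1, Fgg, C6 and Cd55, none under an unadjusted 0.05. C3ar1 was at 7.08, 23.1 and 7.93 CPM in WD tumour mice and 8.89, 6.00 and 3.42 CPM in RD no tumour mice. These groups overlapped, and the log2 fold change of 1.01 (SE 0.53) was 0.31 without WD tumour 2. C6 was at 157 ± 62.9 CPM against 315 ± 160 CPM (SD, n = 3 each; log2 fold change -1.03, SE 0.57), and Cd55 at 43.0 ± 11.7 CPM against 62.3 ± 15.0 CPM (-0.57, SE 0.33). Fgg was at 1430 ± 712 CPM against 2944 ± 2336 CPM, a log2 fold change of -1.06 (SE 0.59) and of -0.28 without RD no tumour 1. Groups without overlap were seen for 2 genes higher (C1s1 and Tfpi; 6.85% of all genes) and 2 lower (Hc and F12; 3.80%). In RD tumour against RD no tumour they were seen for 0 higher (10.8%) and 6 lower (F13b, C8b, F7, F11, Mbl1 and F8; 5.85%), and in WD tumour against RD tumour for 6 higher (F13b, Tfpi, C1s1, F7, F11 and C2; 10.4%) and 0 lower, where 2103 of 19087 genes were lower without overlap.

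**Figure D4:**
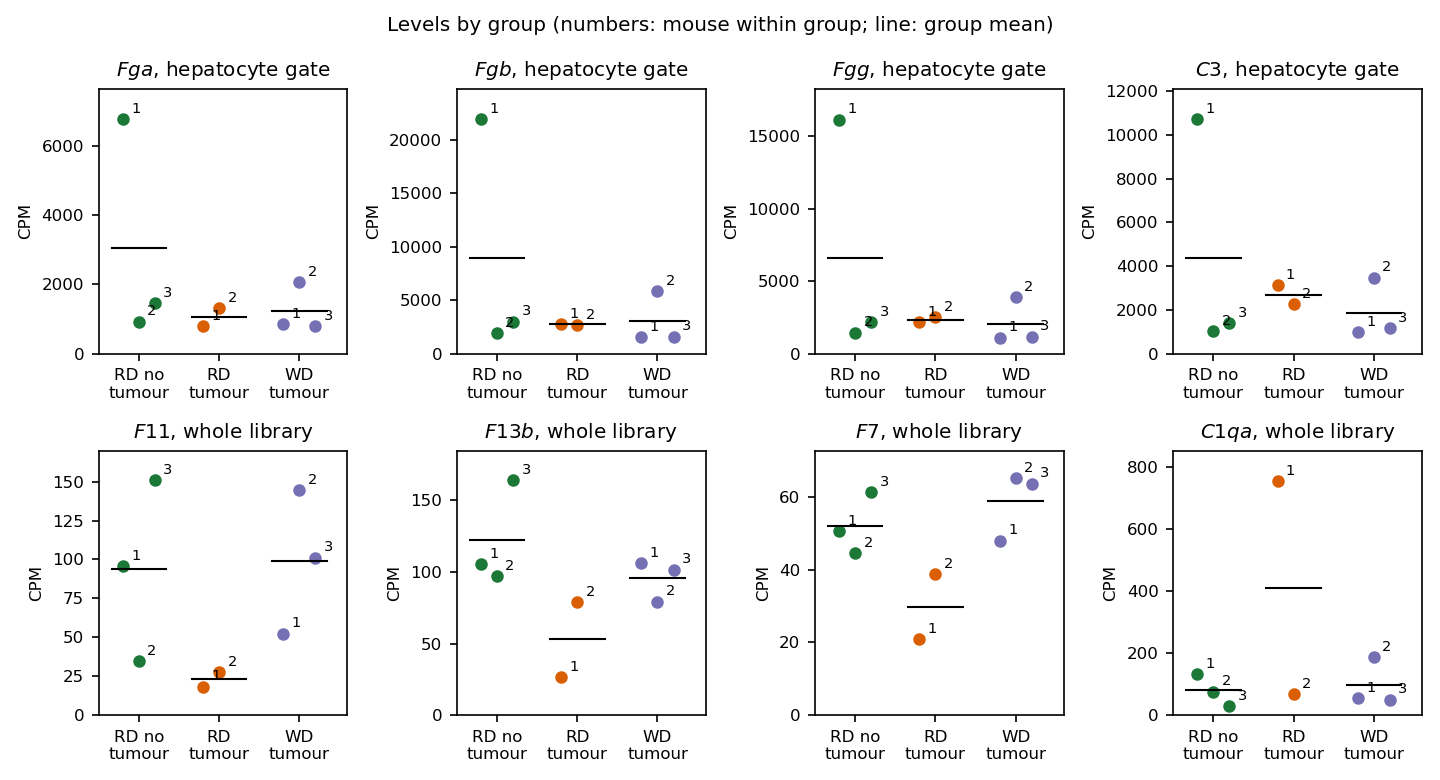
CPM by group of Fga, Fgb, Fgg and C3 in the hepatocyte gate and of F11, F13b, F7 and C1qa in whole libraries, 1 numbered point per mouse with a line at the group mean. RD no tumour 1 is the highest point of the first 4 panels, RD tumour 1 of the C1qa panel, and both RD tumour mice lie lowest for F11, F13b and F7.

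In hepatocyte-gated nuclei, 48 of the 49 genes were tested and none was called in the 3 contrasts (0% of 15680 genes). At an unadjusted p under 0.05 there were 7 genes in RD tumour against RD no tumour (7.85% of all genes), 2 in WD tumour against RD no tumour (4.03%) and 3 in WD tumour against RD tumour (4.99%). Groups without overlap were found for 5 genes higher (20.4%) and 3 lower (3.72%), 3 higher (10.0%) and 2 lower (1.37%), and 6 higher (9.69%) and 3 lower (13.7%) in these contrasts. Fibrinogen contrasts in this gate turned on 1 library. Fgb was at 21907, 1915 and 2982 CPM in RD no tumour mice, 2772 and 2671 CPM in RD tumour mice, and 1561, 5846 and 1584 CPM in WD tumour mice. RD no tumour 1 was the highest for Fga, Fgb and Fgg alike, and WD tumour 2 the next. The log2 fold change of Fgb in WD tumour against RD no tumour was -2.06 (SE 1.23, adjusted p = 1 in edgeR) with that mouse and 0.31 without it. For Fga it was -1.77 and 0.06, for Fgg -2.18 and 0.20, and for C3 -1.72 and 0.64. Saa1 stood high in the same mouse, and its hepatocyte gate held a small share of the nuclei of the widened gate, as given above. The part of either in these values was not tested.

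Among the genes with an unadjusted p under 0.05 in the hepatocyte gate were some with their highest level in other gates. Cd55 was at 24.9 and 54.1 CPM there in RD tumour mice and 9.77 to 13.8 CPM in RD no tumour mice (log2 fold change 1.53, SE 0.52, adjusted p = 0.63 in edgeR). C7 was at 5.75, 8.56 and 6.09 CPM in WD tumour mice and 2.30, 3.24 and 1.56 CPM in RD no tumour mice (log2 fold change 1.36, SE 0.46, adjusted p = 0.988). C3ar1 was at 3.53, 17.1 and 3.84 CPM in WD tumour mice and 1.56 to 1.75 CPM in RD no tumour mice. C5ar1 was at 14.3 and 4.03 CPM in RD tumour mice and 0.66 to 1.15 CPM in RD no tumour mice. Some of these low levels rest on a few UMIs. The hepatocyte sum of RD tumour 1 came from 190 nuclei, and that of RD no tumour 1 held 1739957 UMIs. F9, the factor missing in haemophilia B and a hepatocyte gene, was at 64.1 and 114 CPM in RD tumour mice and 123 to 158 CPM in RD no tumour mice.

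In macrophages 45 of the 49 genes were tested and none was called in any contrast (0% of 8527 genes in each). Cd55 and C3ar1 had an unadjusted p under 0.05 in WD tumour against RD no tumour, where 2.86% of all genes did. C3ar1 and F9 did in RD tumour against RD no tumour (6.67%), and C3ar1 and Cd55 in WD tumour against RD tumour (7.72%). Cd55 was at 241, 300 and 223 CPM in RD no tumour mice, 76.9 and 426 CPM in RD tumour mice, and 51.0, 121 and 104 CPM in WD tumour mice. The WD tumour and RD no tumour mice did not overlap, while the RD tumour mice spanned both (log2 fold change -1.43, SE 0.51, adjusted p = 1 in edgeR). With no filter on low counts its adjusted p was 0.0213. C3ar1 was at 48.5, 57.7 and 58.1 CPM, 25.6 and 30.4 CPM, and 95.2, 67.1 and 90.9 CPM in the same groups, so that the groups lay in the order RD tumour, RD no tumour, WD tumour with no overlap. Its log2 fold change was 0.61 (SE 0.26, adjusted p = 1) in WD tumour against RD no tumour and 1.57 (SE 0.38, adjusted p = 0.638) against RD tumour. The 25.6 CPM of RD tumour 1 comes from a sum of 75 nuclei and rests on few UMIs. For the contrast with RD tumour, no value without that mouse is given.

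Of the 45 genes, 3 lay higher and 3 lower without overlap when macrophages of WD tumour and RD no tumour mice were set side by side, where 4.76% and 4.37% of all genes did. The counts were 5 (11.7%) and 3 (12.6%) for RD tumour against RD no tumour, and 3 (14.2%) and 7 (12.6%) for WD tumour against RD tumour. C6 was among the genes lower in WD tumour than RD no tumour (log2 fold change -0.95, SE 0.68, adjusted p = 1 in edgeR). The share of macrophage-gated nuclei with a Kupffer marker varied: 264 of 562, 200 of 218 and 159 of 195 in RD no tumour mice, 11 of 75 and 190 of 257 in RD tumour mice, and 88 of 117, 181 of 318 and 188 of 296 in WD tumour mice. Within nuclei with a Kupffer marker, C6 was at 1081, 1264 and 1124 CPM in RD no tumour mice, 957 CPM in RD tumour 2, and 752, 628 and 617 CPM in WD tumour mice. Cd55 was at 429, 325 and 251 CPM, 501 CPM, and 60.5, 175 and 147 CPM. Both genes stayed without overlap between the RD no tumour and WD tumour groups in this subset, which was chosen after seeing the data and was not tested. Median mitochondrial shares in the macrophage gate were 4.45%, 3.81% and 5.69% in WD tumour mice and 1.70% to 3.08% in RD no tumour mice, and once nuclei above 5% mitochondrial UMIs were left out the log2 fold change of Cd55 was -1.27.

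**Figure D5:**
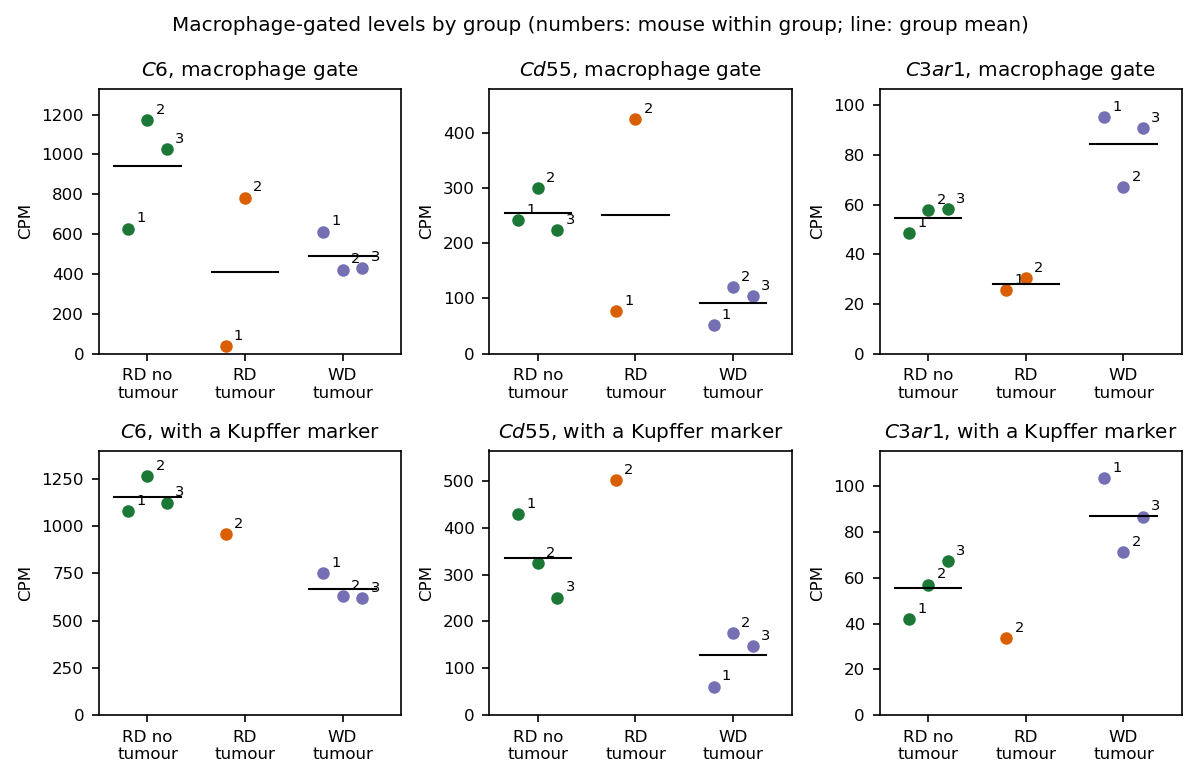
CPM of C6, Cd55 and C3ar1 by group in all macrophage-gated nuclei (top) and in those with a UMI of Clec4f, Timd4 or Marco (bottom), 1 numbered point per mouse with a line at the mean of groups with more than 1 mouse. RD tumour 1 has no value in the bottom row, where the 3 WD tumour mice lie below the 3 RD no tumour mice for C6 and Cd55 and above them for C3ar1.

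In the endothelial, stellate/fibroblast and T/NK gates only WD tumour and RD no tumour could be compared. With all mice that had a sum, no groups were compared in the cholangiocyte, B or neutrophil gates. None of 45 tested genes of the list was called in endothelial or in stellate/fibroblast nuclei, nor any of 23 in T/NK nuclei (0% of 10249, 8878 and 1887 genes). At an unadjusted p under 0.05 there were 7 in endothelial nuclei (F10, Mbl1, Cfi, Plg, C9, Kng1 and Fgg; 4.88% of all genes) and 11 in stellate/fibroblast nuclei (5.07%), of which F8 is no hepatocyte gene; in T/NK nuclei there were 0 (4.08%). Without overlap of the groups, 7 genes were lower in endothelial nuclei (Serpinc1, F2, Cfi, F10, Mbl1, C9 and Plg; 3.76% of all genes) and 0 higher (7.71%), 10 were lower (3.85%) and 0 higher (8.70%) in stellate/fibroblast nuclei, and 1, Serpinc1, was lower in T/NK nuclei (4.56%). Of all these genes without overlap, only F8, in stellate/fibroblast nuclei, was not among those highest in the hepatocyte gate. RNA of hepatocyte genes was present in each of these gates, and its part in these counts was not tested. F8 in its own class, endothelial nuclei, overlapped between WD tumour and RD no tumour mice, as the values above show. Tfpi in endothelial nuclei was at 120, 118 and 112 CPM in RD no tumour mice, 124 CPM in RD tumour 2, and 120, 164 and 154 CPM in WD tumour mice.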

How the data were processed

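Nuclear RNA of 8 frozen livers was measured by 10x 3′ single-nucleus RNA sequencing. The deposited values are UMI counts per gene and barcode, made by the authors with Cell Ranger 7.0.0 on mm10, per the submitters' processing notes; whether intronic reads were counted is not given in the sources used here. Barcodes with at least 300 genes were kept. A nucleus passed a class gate with at least 3 UMIs from at least 2 markers, making up at least 0.5% of its UMIs and at least 75% of its UMIs from non-hepatocyte markers; the hepatocyte gate asked for at least 2% hepatocyte marker UMIs and under 0.5% from other markers. No doublet caller was run. Counts were summed by mouse and class (at least 20 nuclei) and tested in edgeR 4.0.16 (R 4.3.3; TMM, filterByExpr, quasi-likelihood, threshold 0.05), with the mouse as a block between classes. Group fits hold all 8 mice where each had a sum. Sums were made in Python 3.11.15; DESeq2 1.42.0 was an alternative.

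Genes named with values are the most abundant of each role group, those highest outside hepatocytes, the 4 with the lowest p per contrast in whole libraries and hepatocytes, and those under the filter; further genes were named after their values were seen. Members, lists and tests were chosen with earlier results of these data known. Tested on simulated data, the whole-library fit of WD tumour against RD no tumour (19087 genes) recovered 47% of 4-fold and 99% of 16-fold changes, and the macrophage against hepatocyte fit (11893 genes) 95% and 98%. The simulated mice shared a mean per gene, with no outlying library, and contrasts with RD tumour were not simulated. Each library is 1 mouse, so p-values of the group fits measure the spread between mice. Those of the class fits measure the spread of class differences over mice, since the mouse is a block. Alternatives were another normalization, no low-count filter, other barcode and mitochondrial filters, stricter gates, a replicate block and leaving out each mouse.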

Additional observations from a re-analysis of the deposited data

How the results depend on the processing

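Leaving out each mouse in turn gave 0 to 14 called genes of the list in whole libraries for RD tumour against RD no tumour and 0 to 13 for WD tumour against RD tumour; both upper values are those without RD tumour 2, where RD tumour 1 stands alone for its group and is assumed to vary like the other groups. The 14 comprised C1qa, C1qb and C1qc, higher, and 11 lower genes, among 4569 of 19873 genes called, and the 13 stood among 4438 of 19873. In macrophages the range was 0 to 1 for RD tumour against RD no tumour and 0 to 2 for WD tumour against RD tumour, again reaching the upper value without RD tumour 2, where 164 and 162 of 10411 genes were called. Without a low-count filter, 1 gene (Cd55) was called in macrophages in WD tumour against RD no tumour, among 75 of 19386. Signs turned without RD tumour 1 for C1qc in whole libraries (RD tumour against RD no tumour; log2 fold changes over left-out mice from -0.28 to 3.21) and C1qa (WD tumour against RD tumour; from -3.003 to 0.57), and without RD no tumour 1 for Fgg in hepatocytes (WD tumour against RD no tumour; from -3.12 to 0.20). With the hepatocyte gate lacking its minimum, 2 genes were higher and 23 lower in T/NK nuclei and 18 were highest in hepatocytes; the cause was not tested. Deviations from group means had correlations from -0.605 to 0.463 between same-numbered mice of different groups, and from -0.579 to 0.697 between differently numbered ones. In groups of 2 or 3 mice these signs are partly fixed in advance, so they cannot show whether mice were paired. With the replicate number as a block, 0 genes of the list were called in each group comparison. The stricter gate left too few nuclei for cholangiocyte and T/NK sums. Low depth per nucleus limits genes such as Cfd.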
